A study of Bos grunniens with 36 samples.

Results

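Gene expression in the mammary gland of 4 yaks (Bos grunniens) 15 days after calving was set against that of the same 4 yaks 15 days before calving. The comparison holds 8 of the 36 arrays of the series, the 4 value columns titled day +15 and the 4 titled day -15, joined by yak number. The day +15 samples were taken 15 days after calving and the day -15 samples 15 days before it, from the same females, with no treatment stated, so that by their labels the groups differ in day alone. A veterinarian took about 1 g of parenchyma by open biopsy from the rear gland, the left and right side in turn, and removed fat and connective tissue. The side taken on a given day is not recorded, so it could not be a term of any fit. RNA was put on a cattle (Bos taurus) expression array in 1 colour, and values are log2 signals relative to the 75th percentile of their own array. Breed and age are not given in the labels.

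The lactating mammary gland is built from luminal epithelial cells that make and export milk, myoepithelial cells that contract to eject it, and a stroma of fibroblasts, vessels, fat and immune cells. In late pregnancy the epithelium multiplies under progesterone, prolactin and growth factors and makes some milk protein mRNA. Around calving it turns to copious secretion, when caseins, lactose, fat globules, calcium and antimicrobial proteins leave the cell in quantity.

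The day +15 and day -15 arrays differed in more than their day, which touches every result. Array brightness, taken as the 75th percentile of processed intensity, was 1026 to 2109 on the day +15 arrays and 4851 to 5574 on the day -15 arrays, without overlap. Between 77.6% and 80.2% of spots lay well above background at day +15, and between 83.0% and 84.9% at day -15. By the column titles each of the 9 slides held the 4 arrays of 1 day, so slide and day cannot be told apart. Each of the 36 columns also equals 1 scanner file less a constant, and that file is deposited under another sample for all 36, under another day for 27, which includes 3 of the 4 columns of day +15 and 3 of the 4 of day -15. The columns' own titles define the days here. With the days under which the scanner files are deposited, 5 genes were called in place of the 2508 given next, and of the 139 named genes called here 133 had the same sign and 0 the same call.

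Of 20110 genes or transcripts tested with limma, 2508 (12.5%) were called at an adjusted p under 0.05 between day +15 and day -15. The difference was positive, higher at day +15, for 1574 (7.83%) and negative for 934 (4.64%), and 2491 of the 2508 had the same sign in 4 of 4 yaks. The 4 values of day +15 did not overlap the 4 of day -15 for 6703 genes (33.3%). The median difference over all genes was 0.00 (log2). Leaving out all arrays of yak 1, 2, 3 or 4 gave 837, 305, 248 or 726 calls. It kept 59, 34, 30 or 68 of the 139 named genes that were called. The sign held for all 139, which is no test, since they had 1 sign in 4 of 4 yaks (CDC6 in 3 of 4). With array brightness as a covariate, which goes together with day, 282 genes were called, 90 higher and 192 lower. Quantile normalization moved the split to 1117 higher and 1170 lower, and normexp background correction to 1101 higher and 388 lower, with the median of all genes shifted by 0.18.

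The size of the difference went with how bright a gene was on average. Genes with a mean level between -2 and 0 over the 36 arrays had a median difference of -0.14, those between 2 and 3 of 0.38, those between 4 and 5 of 0.90 and the 150 genes above 5 of 1.18. Of these 150 brightest genes 84.0% were called higher and 0 lower. Lists of abundant transcripts are therefore given beside the median of all genes in the same level bins, a step chosen after seeing the data. The mean over the 36 arrays includes the arrays compared here and others taken after calving. A gene that rose at calving and stayed high is thereby moved to a brighter bin, and one that fell to a dimmer bin. Level and difference are therefore not independent, and neither are the bin medians set beside the lists. The part of this binning in the slope was not tested, nor was that of array brightness or scanner range.

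**Figure D1:**
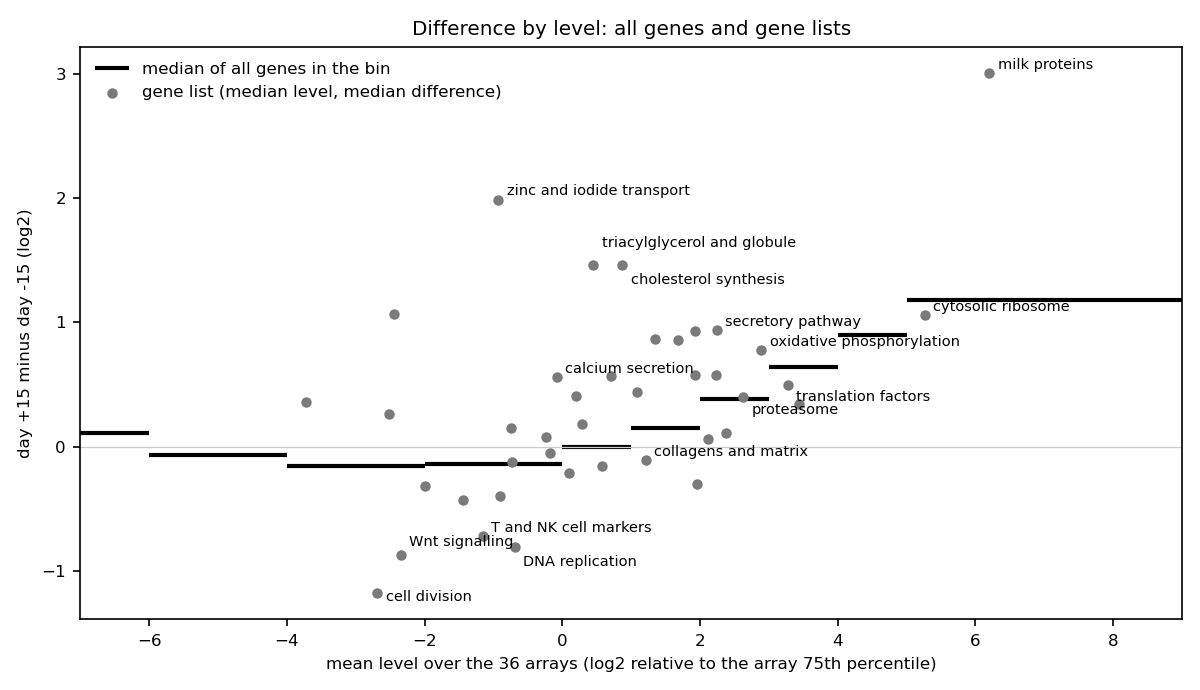
Difference between day +15 and day -15 (log2, y axis) against the mean level over the 36 arrays (log2, x axis). Black lines are medians of all genes in each level bin, the lowest and highest bins being drawn to the edge of the plot, and grey points are the 40 gene lists; the milk proteins (median 3.01) lie above the genes of their level (1.18), and the cytosolic ribosome (1.06) near it (1.18).

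The probes of 5 genes described in the results are shown because each crosses an intron on the cattle assembly UMD 3.1, so that it reads spliced RNA of that gene. Each is a 60-base cattle oligonucleotide of the array, written 5′ to 3′ in lower case, and its match to the yak transcript was not tested. SCN7A and TM7SF2 were higher at day +15, and DNALI1, CHRDL2 and COX4I2 were lower.
SCN7A (chr2:29975813-29978058, + strand): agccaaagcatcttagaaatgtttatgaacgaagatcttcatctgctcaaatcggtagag
TM7SF2 (chr29:43985462-43985608, + strand): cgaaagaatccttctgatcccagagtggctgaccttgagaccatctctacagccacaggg
DNALI1 (chr3:108918186-108920147, - strand): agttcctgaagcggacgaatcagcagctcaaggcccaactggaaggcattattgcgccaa
CHRDL2 (chr15:54794191-54795175, - strand): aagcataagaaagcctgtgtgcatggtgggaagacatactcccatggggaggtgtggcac
COX4I2 (chr13:61749353-61750663, + strand): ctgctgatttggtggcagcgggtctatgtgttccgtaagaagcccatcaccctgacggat

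Of the 12 largest increases 5 belonged to genes that were not well above background on any day -15 array. SCN7A, a sodium channel family member, had 0.59, 1.78, 1.44 and 2.59 at day +15, against -8.28, -7.94, -8.88 and -8.75 at day -15, where it was not well above background on any array. Its level at day +15 was at least 316-fold higher than the detection limit of the day -15 arrays (log2 difference 10.07 ± 1.96 SE, adjusted p = 0.00273). The days did not overlap, and the smallest difference within a yak was 8.88. PHYHIPL, GABRA2, FAM19A5 and SYNPR were likewise not well above background on any day -15 array, and were at least 146-fold, 37.6-fold, 39.5-fold and 27-fold higher at day +15 (adjusted p 0.00762, 0.00721, 0.000474 and 0.000196). GABRA2 codes for a GABA receptor subunit and SYNPR for the synaptic vesicle protein synaptoporin. These bounds use the mean normalized log2 signals of each day, with the lowest signal well above background standing for the dim day.

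Several enzymes joined the largest increases. ALOX15, a lipoxygenase that oxidises polyunsaturated fatty acids, had 2.83, 3.87, 3.29 and 4.38 at day +15, against -2.86, -2.33, -3.65 and -2.92 at day -15 (difference 6.53 ± 1.30 SE, adjusted p = 0.00326). BDH1, the mitochondrial hydroxybutyrate dehydrogenase of ketone body use, had 0.72, 2.61, 2.12 and 3.12 at day +15, against -4.22, -2.85, -4.28 and -5.88 at day -15 (6.45 ± 1.33, adjusted p = 0.00400). PNPLA3, a lipase of lipid droplets, averaged -0.01 at day +15 and -7.79 at day -15 (7.78 ± 1.64, adjusted p = 0.00469). PNPLA3, MYBPC1 and SNTN were well above background on 1 of 4 day -15 arrays each, so their size of difference is poorly measured. Day +15 lay above day -15 for all of them in every yak, and so it did for MYBPC1 (8.14), SNTN (6.69) and GALNTL2 (6.29), a member of the family that starts O-glycosylation. With brightness as a covariate SCN7A, PHYHIPL, MYBPC1, PNPLA3, GABRA2, SNTN, ALOX15 and BDH1 were no longer called, while FAM19A5, SYNPR and GALNTL2 were. Without yak 2 PHYHIPL, MYBPC1, GABRA2 and SNTN lost their calls, and without yak 3 MYBPC1 and GABRA2 did.

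The largest decrease was that of RSPO1, a secreted R-spondin that enhances Wnt signalling. It had -2.83, -4.08, -4.23 and -4.01 at day +15, against 2.69, 2.52, 2.47 and 2.31 at day -15 (difference -6.28 ± 0.71 SE, adjusted p = 3.65e-06). DNALI1, a light intermediate chain of axonemal dynein, had -4.36, -4.72, -4.31 and -4.43 at day +15, against 0.85, 0.87, 0.64 and 0.49 at day -15 (-5.17 ± 0.33, adjusted p = 9.68e-12). The days were separated by more than 4 log2 units in every yak for both genes. They lie near each other: in the yak RefSeq gene table (assembly Bosgru_T2T1.0) GNL2 alone stands between them, and GNL2 averaged 2.95 at day +15 and 3.24 at day -15 (-0.29, adjusted p = 0.319). CHRDL2, which codes for a secreted antagonist of bone morphogenetic proteins, had -4.25, -4.18, -3.42 and -4.22 at day +15, against 0.54, 1.73, -0.64 and 0.63 at day -15 (-4.58 ± 0.49, adjusted p = 2.57e-06).

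The other 9 of the 12 largest decreases lay between -4.81 and -3.64. DUSP9, a phosphatase of MAP kinases, fell by 3.87 (adjusted p = 1.21e-05), the dopamine receptor DRD1 by 3.77 (adjusted p = 0.000659) and the glypican GPC4, a heparan sulfate proteoglycan of the cell surface, by 3.64 (adjusted p = 9.73e-05). PNMT, which methylates noradrenaline to adrenaline, averaged -2.99 at day +15 and 1.15 at day -15 (-4.14 ± 0.89, adjusted p = 0.00527), but lost its call without yak 3 or yak 4. The protease inhibitor A2ML1 (-4.81), the neurofilament gene with the array symbol NEF3 (-4.23), the lipoxygenase ALOX15B (-4.08), the sulfotransferase CHST8 (-3.88) and the zinc finger gene BNC2 (-3.64) also fell. A2ML1 was well above background on 2 of 4 day +15 arrays, ALOX15B and DUSP9 on 3, CHST8 on 1 and BNC2 on 1, so the lower level is poorly measured there. NEF3, ALOX15B, CHST8 and BNC2 were not called with brightness as a covariate or without yak 1, 2 or 3, nor ALOX15B and CHST8 without yak 4.

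**Figure D2:**
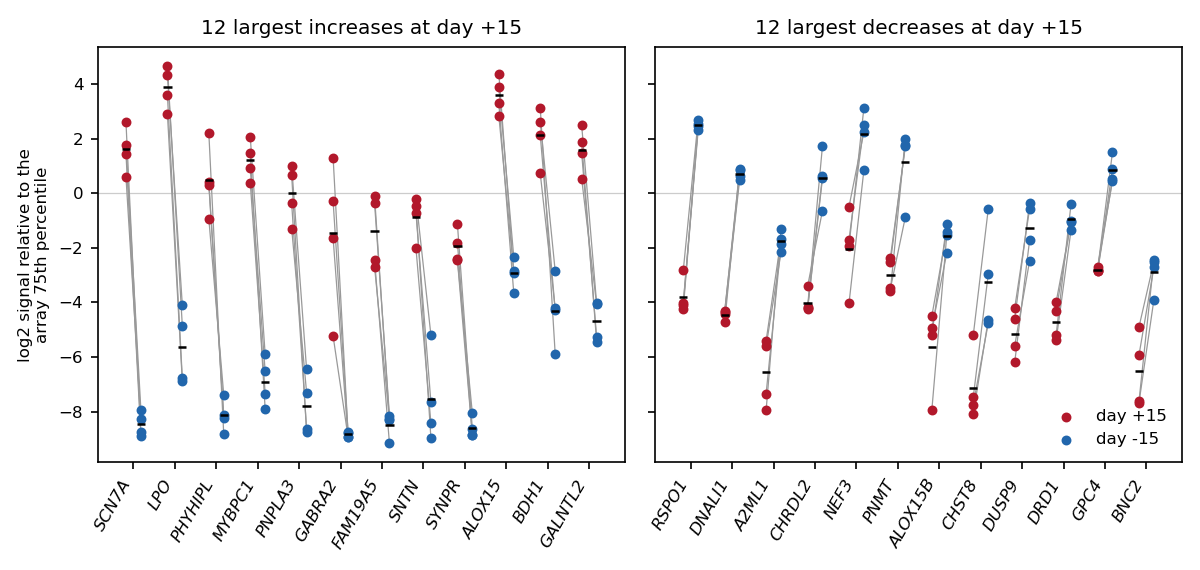
Log2 signal relative to the array's 75th percentile (y axis) of the 12 largest increases (left) and 12 largest decreases (right) at day +15, with day +15 in red and day -15 in blue. Points are yaks, grey lines join the 2 days of a yak and black bars are means of 4; no gene's day +15 and day -15 points overlap.

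All 7 milk protein genes measured were higher at day +15 in 4 of 4 yaks, and in none of the 7 did the days overlap. The day +15 values all lay above those of day -15 for 19.6% of all genes, but for 78 of 80 ribosomal protein genes, which are also bright. Of genes at a mean level between 4 and 5, where LALBA lies, 50.4% were called higher. Of those above 5, where the other milk protein genes lie, 84.0% were. CSN1S2, the alpha-S2 casein, had 7.72, 7.85, 7.96 and 8.49 at day +15, against 3.31, 3.24, 2.42 and 3.74 at day -15 (difference 4.83 ± 1.45 SE, adjusted p = 0.0308). CSN3, the kappa casein that coats the casein micelle, had 8.16, 8.52, 8.29 and 9.23 at day +15, against 5.61, 5.61, 5.41 and 5.54 at day -15 (3.01 ± 0.80, adjusted p = 0.0182). These 2 were called. CSN1S1 (3.31 ± 1.39, adjusted p = 0.109) and CSN2 (2.94 ± 1.48, adjusted p = 0.181), the alpha-S1 and beta caseins, were not. LALBA, the alpha-lactalbumin that turns galactosyltransferase into lactose synthase, had 6.94, 7.35, 7.09 and 7.82 at day +15, against 2.79, 2.81, 0.85 and 3.51 at day -15 (4.81 ± 1.90, adjusted p = 0.0883). PAEP, the beta-lactoglobulin gene, differed by 2.44 ± 1.09 (adjusted p = 0.132) and GLYCAM1, a mucin-like milk glycoprotein, by 2.47 ± 1.69 (adjusted p = 0.333). In bulk tissue a change in the number of epithelial cells and a change in the RNA of each cell cannot be told apart.

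The test of the milk protein genes depended on which arrays set the error. Within the 8 arrays of the 2 days, with yak as a block, 7 of 7 were called, in a fit that called 6998 of all 20110 genes. Without 2 later arrays that were lowest in milk protein mRNA, yak 4 at day +120 and day +180, 7 of 7 were called as well, and without yak 4 at all days 6 were. The 2 arrays were picked by the mean of this same list, which by itself lowers the error of its genes. That count is therefore no test of them. Without yak 1, 2 or 3, after quantile normalization or with brightness as a covariate 0 were called. Quantile normalization brought the median of the list to 0.74, and the brightness covariate turned it to -0.97. Its members stood a median of 1.83 above the median of all genes in their level bins.

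**Figure D3:**
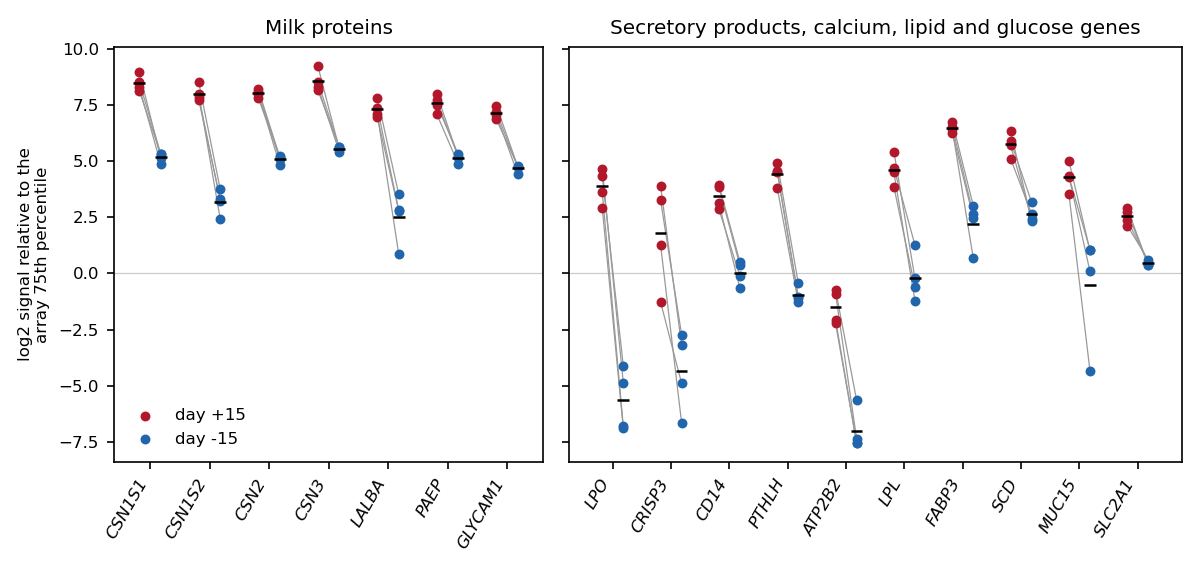
Log2 signal relative to the array's 75th percentile (y axis) of the 7 milk protein genes (left) and 10 genes of defence, calcium, lipid and glucose (right), with day +15 in red and day -15 in blue. Points are yaks, grey lines join the 2 days of a yak and black bars are means of 4; the day +15 points lie above the day -15 points for every gene shown.

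Among 22 antimicrobial and mucosal defence genes 7 rose and 0 fell, against 7.83% and 4.64% of all genes. LPO, the lactoperoxidase of milk, had 2.91, 4.33, 3.61 and 4.66 at day +15, against -6.88, -4.10, -6.78 and -4.86 at day -15 (difference 9.53 ± 1.98 SE, adjusted p = 0.00413). It was well above background on 3 of 4 day -15 arrays, and it lost its call without yak 3 and with brightness as a covariate. CD14, a lipopolysaccharide receptor that is also shed into milk, had 3.11, 3.93, 2.85 and 3.83 at day +15, against -0.67, 0.51, -0.13 and 0.35 at day -15 (3.42 ± 0.51, adjusted p = 0.000213). The secreted protein gene CRISP3 rose by 6.14 with a wide range at day +15 (-1.28 to 3.88, adjusted p = 0.0183). CATHL2, a cathelicidin peptide gene, rose by 2.51 and PIGR, the receptor that carries dimeric IgA across the epithelium, by 1.53 (adjusted p 0.00438 and 0.0469). The other 2 were B2M, the light chain of MHC class I and of the neonatal Fc receptor, and the bacterial lipoprotein receptor TLR2 (1.39 and 1.19). LTF, the lactoferrin gene, averaged 3.76 at day +15 and 3.18 at day -15 and was not called (adjusted p = 0.673). With 1 yak left out between 1 (yak 3) and 5 (yak 4) of the list were called, and with brightness as a covariate 1 was.

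Genes of milk fat were called higher at several steps, from fatty acid uptake to globule release. Of all genes 7.83% were called higher and 4.64% lower. In the uptake list 8 of 19 rose and SLC27A1, a fatty acid transporter, fell by 1.25. LPL, the lipoprotein lipase that frees fatty acids from blood lipoproteins, had 3.84, 4.68, 4.49 and 5.42 at day +15, against -0.61, 1.26, -1.22 and -0.22 at day -15 (difference 4.80 ± 1.38 SE, adjusted p = 0.0253). FABP3, the fatty acid binding protein of the lactating cell, had 6.25, 6.52, 6.42 and 6.75 at day +15, against 2.48, 2.63, 0.67 and 3.01 at day -15 (4.29 ± 1.35, adjusted p = 0.0379). VLDLR, a lipoprotein receptor, rose by 2.54, CD36, a fatty acid translocase, by 2.25 and ACSL1, which activates long-chain fatty acids with coenzyme A, by 2.02. Of de novo synthesis genes 3 of 20 rose, SCD, the desaturase that makes oleate, by 3.1 (adjusted p = 0.0396), the isocitrate dehydrogenase IDH1 by 1.91 and the elongase ELOVL1 by 1.24. These 3 calls became 0 whichever yak was left out, and with brightness as a covariate. FASN, the fatty acid synthase, averaged 4.98 at day +15 and 3.71 at day -15 (1.26 ± 0.70, adjusted p = 0.225), and ACACA, the acetyl-CoA carboxylase, averaged -0.19 at day +15 and -1.97 at day -15 (adjusted p = 0.103).

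Of 23 genes for triacylglycerol synthesis and the milk fat globule 8 rose and 0 fell, against 7.83% and 4.64% of all genes. The list median was 1.46, against 0.00 over all genes. MUC15, a globule membrane mucin, had 4.30, 3.52, 4.31 and 5.0 at day +15, against 1.06, -4.33, 0.09 and 1.02 at day -15 (difference 4.83 ± 1.37 SE, adjusted p = 0.0240). The phosphatidate phosphatase gene LPIN1 rose by 4.73, CIDEA, a protein of lipid droplet growth that binds butyrophilin in mouse gland, by 3.40, MFGE8, or lactadherin, by 3.28 and AGPAT6, a glycerol phosphate acyltransferase, by 2.31. XDH, which with butyrophilin wraps the globule, had 5.28, 5.49, 5.12 and 5.80 at day +15, against 3.61, 3.53, 3.1 and 3.31 at day -15 (2.03 ± 0.65, adjusted p = 0.0400). BTN1A1, butyrophilin itself, had 4.93, 5.60, 5.16 and 5.84 at day +15, against 2.68, 3.23, 2.07 and 2.47 at day -15, and was not called (2.77 ± 2.22, adjusted p = 0.415), although the days did not overlap. Without 1 yak between 1 (yak 2 or 3) and 5 (yak 4) of this list and between 0 (yak 2 or 3) and 3 (yak 1) of the uptake list were called. With brightness as a covariate 1 and 0 were, and the globule list's median was -0.21.

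Of 21 cholesterol synthesis genes 11 rose and 0 fell, against 7.83% and 4.64% of all genes. The list median was 1.46. TM7SF2, a sterol reductase, had -2.29, -1.38, -1.75 and -1.22 at day +15, against -4.09, -4.54, -3.90 and -4.84 at day -15 (difference 2.68 ± 0.62 SE, adjusted p = 0.00817). IDI1, an isopentenyl diphosphate isomerase, had 2.61, 3.64, 2.98 and 3.76 at day +15, against 1.41, 0.72, 0.71 and 0.43 at day -15 (2.43 ± 0.53, adjusted p = 0.00571). PMVK, DHCR7 and CYP51A1, a mevalonate pathway kinase and enzymes of the sterol steps, rose by 2.26, 2.07 and 2.03, and the groups did not overlap for these 5 genes. The other members called were SC5DL, MSMO1, FDPS, EBP, LSS and SQLE, the squalene epoxidase. Yak 1 had the smallest list mean at day +15 (0.67, against 1.07 to 1.66 in the others). Members stood a median of 1.14 above all genes in their level bins, and 10 of the 21 were called after quantile normalization. Without yak 1, 2, 3 or 4 there were 4, 0, 2 or 2 calls, and with brightness as a covariate 0.

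Of 15 regulators of lipid synthesis 5 rose, against 7.83% of all genes. INSIG1, which holds back the sterol sensor and is itself a target of SREBP, had 1.83, 2.67, 1.81 and 2.28 at day +15, against -0.13, -0.65, -0.64 and -0.84 at day -15 (difference 2.71 ± 0.66 SE, adjusted p = 0.0112). PPARGC1A, a coactivator of nuclear receptors, rose by 2.28, PPARA, a fatty acid receptor, by 1.49, SREBF2, the factor of cholesterol genes, by 0.89 and INSIG2 by 0.74. SREBF1, the factor of fatty acid genes, differed by 0.57 (adjusted p = 0.494), PPARG by 0.38 (adjusted p = 0.333) and THRSP by 0.60 (adjusted p = 0.600), and none of the 3 was called. There were 2 calls with any 1 yak left out, and 1 with brightness as a covariate.

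Glucose uptake and sugar nucleotide supply rose in part. SLC2A1, the glucose transporter GLUT1, had 2.12, 2.74, 2.38 and 2.89 at day +15, against 0.60, 0.36, 0.48 and 0.38 at day -15 (difference 2.08 ± 0.52 SE, adjusted p = 0.0137). UGP2, which makes UDP-glucose, SLC35B1, a nucleotide transporter, and PGD, of the pentose phosphate path, rose by 1.91, 1.40 and 1.04, while GALK1, galactokinase, fell by 0.97 (adjusted p = 0.0473). In all 4 of 19 rose and 1 fell, against 7.83% and 4.64% of all genes. B4GALT1, the galactosyltransferase of lactose synthase, differed by 1.45 without a call (adjusted p = 0.0734). Without yak 2 or 3 there were 0 calls higher, and with brightness as a covariate 0 in either direction.

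Among the listed genes of calcium, zinc and iodide handling PTHLH and ATP2B2 had the largest differences. PTHLH, the parathyroid hormone-related protein that the lactating gland releases to draw calcium from bone, had 3.8, 4.51, 4.55 and 4.91 at day +15, against -1.28, -1.11, -1.04 and -0.43 at day -15 (difference 5.41 ± 0.91 SE, adjusted p = 0.000659). ATP2B2, the plasma membrane calcium pump known for exporting calcium into milk in mouse, had -2.23, -0.93, -2.07 and -0.74 at day +15, against -7.53, -7.35, -7.54 and -5.64 at day -15 (5.52 ± 0.88, adjusted p = 0.000363), where it was well above background on 1 of 4 arrays. The store-operated channel ORAI1 rose by 2.35 and the reticulum pump ATP2A2 by 0.83, so that 4 of 16 rose and 0 fell. Of all genes 7.83% rose and 4.64% fell. The pumps ATP2B1 and ATP2C1 differed by -0.05 and 0.23 and were not called (adjusted p 0.954 and 0.584). Of 8 zinc and iodide transporters 3 rose, SLC30A4, which loads zinc into secretory vesicles, by 2.77, SLC39A14 by 2.04 and SLC39A8 by 2.01. SLC30A2 (3.09, adjusted p = 0.139) and the iodide symporter SLC5A5 (1.98, adjusted p = 0.0587) had positive differences without a call. Without 1 yak 2 calcium genes and 1 zinc gene were called each time. With brightness as a covariate PTHLH and ATP2B2 stayed called, ORAI1 and ATP2A2 did not, and 0 zinc or iodide transporters were called.

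Of 21 amino acid carriers 3 were called higher and 1 lower, where 7.83% and 4.64% of all genes were. SLC1A5, a glutamine carrier, had 1.79, 2.61, 2.04 and 3.17 at day +15, against -0.91, -0.53, -0.85 and -1.32 at day -15 (difference 3.31 ± 0.85 SE, adjusted p = 0.0150), and SLC7A1, for arginine and lysine, and SLC1A4, for small neutral amino acids, rose by 1.80 and 1.63. SLC7A1 was well above background on 3 of 4 day +15 arrays and 1 of 4 day -15 arrays, so its difference is poorly measured. SLC6A14, a broad carrier of neutral and cationic amino acids, had -1.18, -3.38, -1.37 and -3.98 at day +15, against 0.75, 0.94, 1.81 and 0.85 at day -15 (-3.57 ± 0.79, adjusted p = 0.00647). SLC7A5, the leucine carrier, differed by 1.56 (adjusted p = 0.148). Without 1 yak at most 1 was called in each direction, and with brightness as a covariate 0 were.

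Genes of protein export were called higher more often than all genes (7.83%). Of 40 genes for translocation into the endoplasmic reticulum and vesicle traffic 22 were higher and 0 lower (median 0.94, against 0.38 for genes at the same level), and of 24 genes of reticulum folding and the unfolded protein response 10 were higher and 0 lower (0.93 against 0.27). SEC62, part of the translocation channel, had 4.19, 4.43, 4.36 and 4.86 at day +15, against 2.88, 2.58, 2.50 and 2.38 at day -15 (difference 1.88 ± 0.43 SE, adjusted p = 0.00804). SAR1B, the GTPase of COPII vesicles, rose by 1.84, the signal peptidase subunit SEC11C by 1.63, the signal recognition particle subunit SRP54 by 1.59 and the translocon-associated SSR4 by 1.57. ATF4, a stress-response transcription factor, had 4.73, 4.79, 4.6 and 5.43 at day +15, against 3.16, 3.16, 3.2 and 3.26 at day -15 (1.69 ± 0.43, adjusted p = 0.0152). TRIB3 and DDIT3, both known targets of ATF4, rose by 2.97 and 1.34, the co-chaperone DNAJC3 by 1.72, CREB3L1 by 1.83, XBP1 by 1.28 and the chaperone HSPA5 by 1.14. With brightness as a covariate 1 and 0 of the 2 lists were called higher, with medians of 0.14 and 0.18. After quantile normalization 10 and 7 of the 2 lists were called. With 1 yak left out between 1 (yak 2 or 3) and 8 (yak 1), and between 0 (yak 2 or 3) and 3 (yak 1), were.

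Ribosomal protein genes had the largest share of calls of the 40 lists, with a median difference near that of genes as bright. Of 80, 66 were called higher, against 7.83% of all genes and 84.0% of those above a level of 5. Their median was 1.06, while genes of the same level had 1.18. Quantile normalization gave a median of -0.13 with 0 higher and 11 lower. RPL7 averaged 6.45 at day +15 and 4.89 at day -15 (difference 1.56 ± 0.34 SE, adjusted p = 0.00609), and RPS2, RPL21 and RPS24 differed by 1.49, 1.34 and 1.34; after quantile normalization RPS2 and RPS24 turned to -0.87 and -0.23. RPL3L, the muscle form of RPL3, was the 1 member lower (-0.87). These genes have many near-identical copies, which probes may not tell apart. The 32 translation factors had a like pattern (10 higher, median 0.50 against 0.64 at the same level, -0.02 after quantile normalization), EEF1A1, EIF1, EEF2, EIF2S2 and EIF3I among them (1.6, 1.37, 1.13, 1.13 and 1.04), with EEF1A1 at -0.03 after quantile normalization. Of 20 aminoacyl-tRNA synthetases 4 rose, TARS by 1.68, MARS by 1.22, GARS by 1.11 and SARS by 0.94 (list median 0.58 against 0.38), and 0 were called whichever yak was left out. Without yak 1, 2, 3 or 4 there were 1, 1, 0 or 30 ribosomal calls higher and 1, 0, 0 or 4 of translation factors. With brightness as a covariate 0 ribosomal, translation factor or synthetase genes were called higher, and the list medians were 0.02, -0.08 and -0.06.

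Oxidative phosphorylation had 43 of 80 subunit genes higher, with a median of 0.78 against 0.38 at the same level and 0.19 after quantile normalization, where 5 were called higher. COX7B averaged 4.4 at day +15 and 3.1 at day -15 (difference 1.31 ± 0.27 SE, adjusted p = 0.00382), and UQCRB, COX7C and NDUFA5 rose by 1.25, 1.21 and 1.15. The exception was COX4I2, the isoform of cytochrome oxidase subunit IV known from lung and low oxygen, which had -1.15, -0.74, -1.06 and -0.45 at day +15, against 1.67, 1.52, 1.65 and 1.68 at day -15 (-2.48 ± 0.44, adjusted p = 0.00127). The fuel list had 5 of 33 higher, BDH1 as above, the monocarboxylate carrier SLC16A1 by 3.25, OXCT1, which activates ketone bodies, by 1.91 with overlapping days, PDHB by 1.16 and MDH1 by 0.98. Of 38 proteasome genes 4 were called higher, where 7.83% of all genes and 18.9% of those at a level between 2 and 3 were. The list median was 0.40, against 0.38 at the same level. The 4 were PSMA7, PSMB1 and PSMA3, by 0.96, 0.75 and 0.72, and PSMB11, the thymus form of the beta5 subunit. PSMB11 was at least 5.18-fold higher at day +15 and not well above background on any day -15 array. Respiratory chain calls higher numbered 7, 2, 2 or 14 without yak 1, 2, 3 or 4, fuel calls 3, 2, 1 or 2, and proteasome calls 1, 0, 0 or 1. Quantile normalization gave 1 proteasome gene higher and 2 lower, with a median of -0.10. With brightness as a covariate 0 respiratory chain, fuel or proteasome genes were called higher, and the list medians were 0.04, 0.01 and -0.10.

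**Figure D4:**
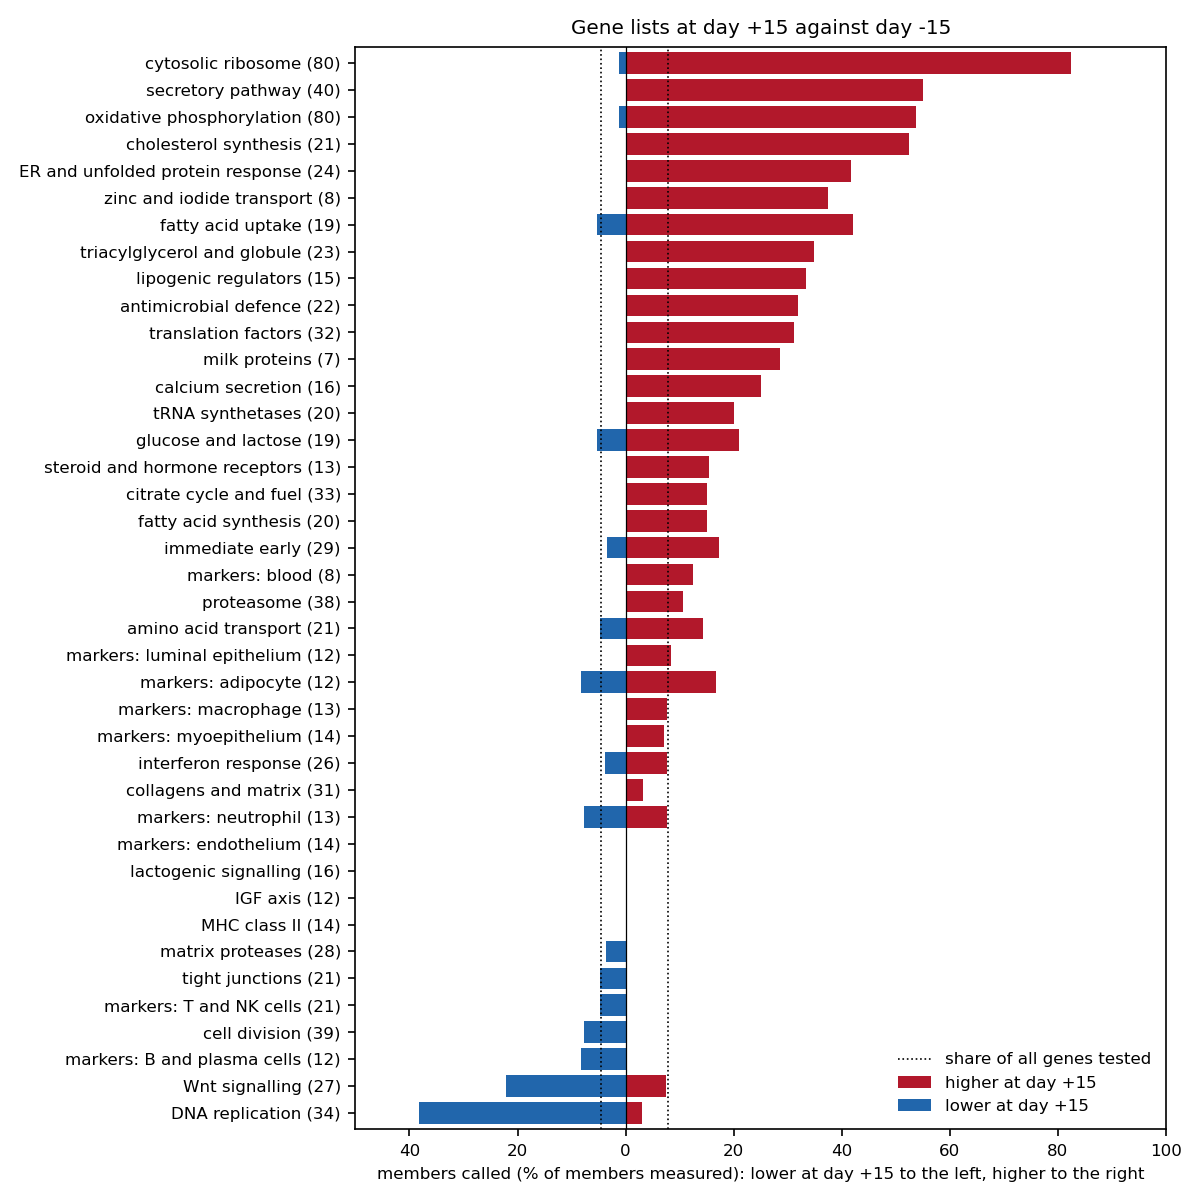
Share of the measured members of each of the 40 gene lists (number measured in parentheses) called higher at day +15 (red, to the right) and lower (blue, to the left), in percent of members. Dotted lines mark the share of all genes tested, 7.83% higher and 4.64% lower; DNA replication and Wnt signalling reach furthest to the left.

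Of 34 DNA replication genes 13 fell and LIG1 alone rose, where 4.64% of all genes fell and 7.83% rose. The list median was -0.81. MCM7, a subunit of the replicative helicase, fell by 1.34 (adjusted p = 0.00127), and MCM3, MCM4 and MCM6 by 1.62, 1.21 and 1.49. CDT1, which loads that helicase, had -2.56, -0.80, -1.72 and -2.21 at day +15, against -0.26, 0.22, 0.39 and -0.63 at day -15 (difference -1.75 ± 0.52 SE, adjusted p = 0.0293). UHRF1, which keeps up DNA methylation after replication, had -1.40, 0.16, -0.97 and -1.39 at day +15, against 1.43, 1.15, 1.13 and 0.05 at day -15 (-1.84 ± 0.53, adjusted p = 0.0262). The days touched here, since yak 2 at day +15 lay above yak 4 at day -15. ORC1 and CDC6 fell by 2.42 and 2.20 with overlapping days, CDC6 in 3 of 4 yaks, and were well above background on 2 of 4 day +15 arrays each. POLA2, POLE, FEN1, RFC5 and PRIM1 were the remaining calls, and LIG1, the replicative ligase, rose by 0.71.

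Mitotic genes leaned the same way with few calls. Of 39, 37 had a negative difference and the median was -1.18, but 3 were called, KIF20A and KIF2C, kinesins of division, and the mitotic kinase PLK1, which fell by 2.13, 1.18 and 1.04. Of all genes 4.64% were called lower. Within the 8 arrays of both days, with yak as a block, 24 mitotic genes were called lower, and without that block 7 were. Those 2 fits called 3188 and 2590 of all 20110 genes lower. The mean of the list was -2.55, -1.43, -2.09 and -3.77 in yaks 1 to 4 at day +15, against -1.31, -1.15, -1.29 and -1.88 at day -15, so that it was lower at day +15 within every yak while yak 4 was lowest on both days. Without yak 1, 2, 3 or 4 there were 0, 0, 0 or 3 mitotic calls and 2, 2, 1 or 7 replication calls. With brightness as a covariate 1 of each list was called, and the medians were -0.42 and -0.56.

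Of 27 Wnt pathway genes 6 fell and 2 rose, where 4.64% of all genes fell and 7.83% rose. The list median was -0.87. With brightness as a covariate 2 were called lower and 0 higher, and the median turned to 0.08. Without that covariate the 6 that fell were RSPO1, DKK1, FZD1, WNT6, WNT5B and AXIN2. DKK1 is a secreted inhibitor (-2.16, adjusted p = 0.0304), FZD1 a receptor (-1.72), and WNT6 and WNT5B are ligands (-1.56 and -1.45). AXIN2 is a standard target of the pathway (-1.33, adjusted p = 0.00545). Another inhibitor, DKK2, had -2.67, -0.33, -1.41 and -0.20 at day +15, against -3.00, -3.79, -4.51 and -4.61 at day -15 (difference 2.82 ± 0.71 SE, adjusted p = 0.0135), and RSPO2 rose by 1.51. MYC, a growth regulator, had 0.58, 0.15, 0.50 and 1.12 at day +15, against 2.27, 2.46, 2.47 and 2.38 at day -15 (-1.81 ± 0.27, adjusted p = 0.000213). Other immediate early genes rose: FOS by 2.73, the phosphatase DUSP1 by 1.66, FOSL2 by 1.07, JUND by 0.92 and JUN by 0.90, which makes 5 of 29 higher and MYC the 1 lower. Without yak 1, 2, 3 or 4 there were 3, 1, 1 or 2 Wnt calls lower, and MYC and RSPO1 were called each time.

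Receptors and signalling genes of lactation showed few calls, where 7.83% of all genes were called higher and 4.64% lower. Of 16 genes of prolactin and growth hormone signalling 0 were called by limma, and 2 had an unadjusted p under 0.05. PRLR, the prolactin receptor, had -0.52, 0.01, -0.86 and 0.17 at day +15, against -0.42, 0.51, -0.63 and 0.37 at day -15 (difference -0.26 ± 0.44 SE, adjusted p = 0.723), while STAT5A, which carries its signal, had 0.15, 0.55, -0.38 and 0.26 at day +15, against 0.19, 0.07, 0.02 and 0.64 at day -15 (-0.09 ± 0.40, adjusted p = 0.910). The days overlapped for both. ELF5, a transcription factor of the secretory epithelium, had 4.78, 5.16, 4.90 and 5.73 at day +15, against 3.60, 3.31, 3.54 and 3.44 at day -15 (1.67 ± 0.63, adjusted p = 0.0739). Of 13 steroid and hormone receptors 2 rose, the thyroid hormone receptor THRB by 2.72 and the oxytocin receptor OXTR by 1.46 (adjusted p 0.00782 and 0.0314), THRB being well above background on 1 of 4 day -15 arrays, while ESR1 and PGR differed by 0.43 and 0.61 (adjusted p 0.534 and 0.311). Of 12 genes of the IGF axis 0 were called and 4 had an unadjusted p under 0.05, IGFBP2 having the smallest p (-1.56, adjusted p = 0.0577). Within the 8 arrays alone, with yak as a block, 6 genes each of the prolactin and IGF lists were called. That fit called 6998 of all 20110 genes.

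Few structural genes were called, where 7.83% of all genes were called higher and 4.64% lower. Of 31 collagen and matrix genes VIM, vimentin, was called higher (1.12, adjusted p = 0.00779, but -0.08 after quantile normalization) and none lower, with a median of -0.11 that turned to 0.57 with brightness as a covariate. COL1A1, COL1A2 and COL3A1 differed by -0.11, -0.10 and -0.06, while the 31 ran from -1.49 to 1.12, 21 of them negative and 10 positive. Of 28 matrix proteases ADAMTS9 fell by 1.39, and of 21 tight junction genes CGN, cingulin, fell by 0.97 (adjusted p = 0.0113).

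The markers of mammary epithelium were in place on both days. The mean of 12 luminal markers ran from 2.27 to 2.64 at day +15 and from 1.99 to 2.30 at day -15. KRT8 was at 3.55 at day +15 and 3.53 at day -15 and KRT18 at 1.55 at day +15 and 1.6 at day -15. Differences of the 12 ran from -0.97 to 2.24, 7 positive and 5 negative. MUC1 (2.24) and ELF5 (1.67) were not called. KRT19 was the 1 luminal marker called (1.25, adjusted p = 0.0293), where 7.83% of all genes were called higher. It turned to -0.16 after quantile normalization. The mean of 14 myoepithelial markers ran from 2.51 to 3.42 at day +15 and from 2.39 to 2.91 at day -15, OXTR being the 1 called. Endothelial markers had 0 of 14 called by limma, 2 with an unadjusted p under 0.05, and their mean ranged from 0.11 to 0.38 at day +15 and from -0.15 to 0.34 at day -15. The mean of adipocyte markers ranged from -1.24 to -0.65 at day +15 and from -1.34 to 0.35 at day -15: FABP4 and CFD rose by 1.43 and 1.03, PLIN4 fell by 0.55, and ADIPOQ, which defines the cell, was not called (-0.93, adjusted p = 0.585). The part of a shift in cell makeup in the results above was not tested.

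T and NK cell markers were lower in mean in every yak, at -1.11, -1.29, -1.88 and -1.21 at day +15, against -0.58, -0.85, -0.92 and -0.36 at day -15. Of the 21 markers 20 had a negative difference and the median was -0.72, but GZMA, a granzyme, was the 1 called (-1.24, adjusted p = 0.0475). It was well above background on 1 of 4 day +15 arrays, and it turned to 0.26 after normexp correction. CD27 and CD3E differed by -1.49 and -0.84 (adjusted p 0.0528 and 0.154). Of 12 B and plasma cell markers POU2AF1 fell by 2.39. CD14 was the 1 of 13 macrophage markers called, and 0 of 14 MHC class II genes were, 2 having an unadjusted p under 0.05. Neutrophil markers had a median of 1.07 with 1 call each way, the cathelicidin CATHL5 higher by 2.56 and the peptidoglycan receptor PGLYRP1 lower (-1.02, -0.87, -1.48 and -2.20 at day +15, against 0.58, 0.89, 0.61 and 0.46 at day -15, adjusted p = 0.00231). S100A8 and S100A12, calgranulins, differed by 2.55 and 2.33 without a call (adjusted p 0.119 and 0.0658). Of 26 interferon response genes OAS2 and IFIT2 rose by 2.95 and 1.37 and XAF1 fell by 1.12, where 7.83% of all genes were called higher and 4.64% lower. In this list 21 genes had a negative difference, and the median of -0.40 turned to 0.37 with brightness as a covariate. Among blood markers the globin genes HBA and HBB differed by 0.31 and 0.90 without a call (adjusted p 0.890 and 0.689), the mean of the 8 blood markers at day +15 running from -3.96 to 0.74 between yaks. Within the 8 arrays alone, with yak as a block, 12 T and NK markers were called lower, as were 3188 of all 20110 genes. With brightness as a covariate 0 of these markers were, and their median was 0.02.

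The day +1 samples split the interval in 2 steps. Day +1 against day -15 gave 359 calls (1.79%) and day +15 against day +1 gave 64 (0.318%), comparisons that share their arrays with the main one, so that their values are only set side by side. Day -15 against day -30 gave 1 (0.00497%). DNALI1 had made most of its step by day +1 (-4.68, adjusted p = 1.38e-10) and changed by a further -0.49 to day +15 (adjusted p = 0.399). RSPO1 moved by -4.71 and -1.57 over these steps, CHRDL2 by -3.97 and -0.61, DUSP9 by -4.98 and 1.11 and MYC by -1.54 and -0.27, the first step being called and the second not for each. PGLYRP1 and ADAMTS9 had the same course, -2.65 and 0.62, and -1.77 and 0.38. Genes that rose in the first step were CD14 (2.48, adjusted p = 0.00966), FAM19A5 (5.62, adjusted p = 0.00921), GALNTL2 (4.12, adjusted p = 0.0184) and OXTR (1.97, adjusted p = 0.0157).

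For the milk synthesis genes given next neither step alone was called. CSN3 moved by 0.80 to day +1 and by 2.21 from there to day +15, CSN1S2 by 2.47 and 2.36, PTHLH by 1.76 and 3.65, SCD by 0.80 and 2.30, IDI1 by 0.60 and 1.83 and SLC1A5 by 0.61 and 2.69. LPO moved by 7.15 and 2.39 (adjusted p 0.0548 and 0.504). At day +1 yak 4 lay above the other yaks for each of these genes, as for PTHLH (0.05, -0.38, 0.48 and 3.03 in yaks 1 to 4). Its day +1 array had a brightness of 2080, within the range of the day +15 arrays. Those of yaks 1, 2 and 3 had 3792, 5355 and 4362. The day +1 means therefore join unlike arrays. Whether the steps differed in size was not tested, nor was the part of brightness in them.

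**Figure D5:**
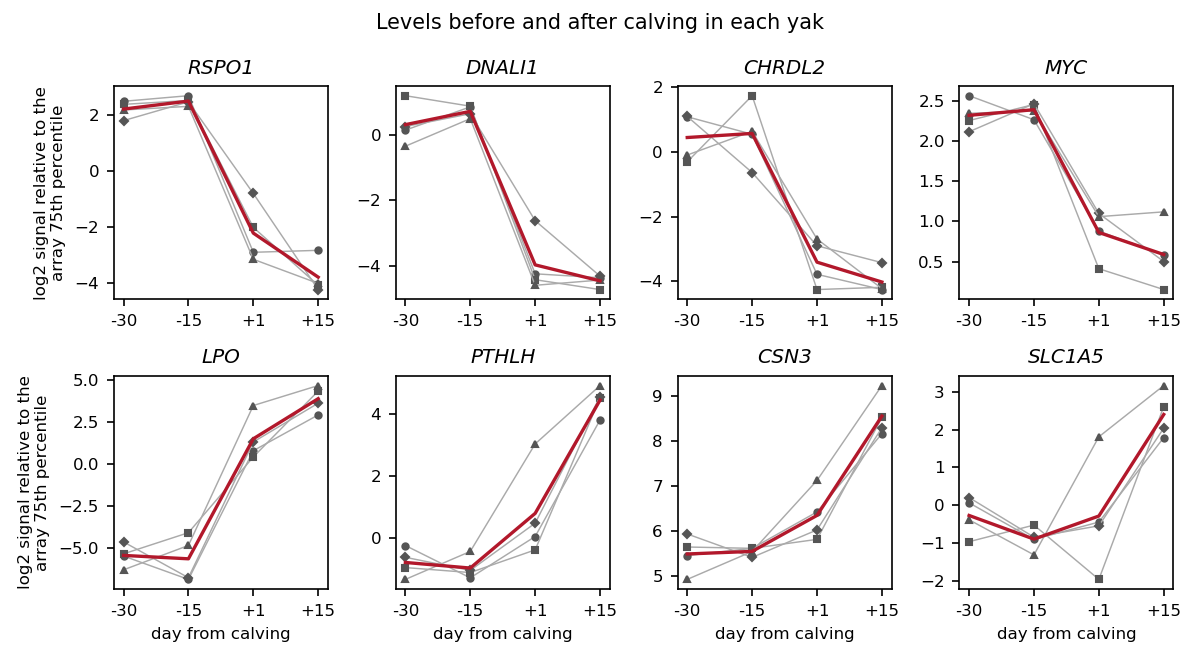
Log2 signal relative to the array's 75th percentile (y axis, scaled per gene) at days -30, -15, +1 and +15 from calving (x axis) for 8 genes. Each marker shape and grey line is 1 yak and the red line is the mean of 4; RSPO1, DNALI1, CHRDL2 and MYC are already low at day +1, and PTHLH and CSN3 climb on to day +15.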

How the data were processed

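Yak mammary RNA was labelled with Cy3 and put on Agilent bovine arrays, 4 yaks at 9 days, 1 array a sample. Per the file headers, the scanner files hold spot intensity values from Feature Extraction 10.7.3.1, background subtracted within each array, with flags of 0 or 1 (other values) for spots well above background, saturated or outlying. The deposited value table holds log2 values, 34997 of 43653 probes, and each column equals the log2 processed signal of 1 scanner file less about its 75th percentile (100% of probes within 0.001). Per the series' design text, the authors used GeneSpring 12 and JMP Genomics 7. The log2 values as deposited were analysed here.

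Gene names came from the scanner files' annotation by probe, 1 probe a gene (the highest mean over 36 columns), which gave 20110 genes or transcripts, 13424 with a symbol, 11573 of these in the yak RefSeq table. Of 8740 genes with several probes, 6 had probes called in opposite directions. All 36 columns were fitted with limma 3.58.1 (R 4.3.3, statmod 1.5.0), day as a fixed factor and yak as a random block (correlation 0.0531), two-sided, with Benjamini-Hochberg adjustment over all genes. A gene was called at an adjusted p under 0.05. Tables and plots used Python 3.11.15, pandas 2.3.3, numpy 2.4.6 and matplotlib 3.10.9. The yak number in the titles names the animal and was used to pair the days. Same-numbered samples of the 2 days had correlated deviations from the group means (r 0.260, 0.306, 0.388 and 0.401). Yak number also matches the array position on every slide, so animal and position cannot be told apart in this correlation. On data simulated for day +15 against day -15 over 20110 genes, 30 of 100 genes changed by 1 log2 unit were recovered. Of 100 changed by 2, 79 were recovered, and 5 unchanged genes were called. The simulated noise was independent between arrays, with no yak, brightness or slide effect, so these rates need not hold for the data. Precision is limited by 4 animals a day.

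Genes named in the text were the 12 largest called increases and decreases of the same sign in 4 yaks, all milk proteins, up to 5 called members of each of the 40 lists and 12 fixed genes. The largest changes also needed a gene symbol and a signal well above background on all 4 arrays of their higher day. The lower day had no such filter. Other list members were named after their values were seen, and 2 genes that the rule picked are not reported here. Members, lists and rule were chosen with earlier results of these data known. Alternatives were other blocks, leaving out each yak, quantile normalization, normexp with an offset of 50, a filter on dim probes (well above background on 3 of 4 arrays of a day), means over probes, brightness as a covariate, the scanner files' own record, leaving out yak 4 at days +120 and +180 and an ordinary linear model. Sequences of yak transcripts and a genome were not used here.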

Additional observations from a re-analysis of the deposited data

Results flagged for a closer look

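Within the 4 samples of a day, 1 yak stood far from the other 3 in 14 of 304 groups of named genes, and chance flags about 1 in 20. At day +15 yak 1 stood apart for RSPO1 (-2.83, the others lower) and OAS2 (-2.83, the others higher), and yak 3 for CHRDL2 (-3.42, the others lower). Yak 4 at day +15 was above the others for EEF2 (6.40), FOS (2.01) and RPS24 (6.85). At day -15 yak 2 was below the others for PNMT (-0.88) and OXCT1 (-1.80) and above them for CFD (2.22). Yak 3 at day -15 was below the others for GLYCAM1 (4.41), PGD (2.57) and PSMA3 (2.36). Yak 4 at day -15 was above the others for ATP2B2 (-5.64), and yak 1 at day -15 was below the others for OAS2 (-4.91). OAS2 was set apart in yak 1 on both days.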

How the results depend on the processing

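The 2508 calls (1574 higher, 934 lower) became 6998 (3810 and 3188) within the 8 arrays of both days with the replicate block, where yak is the block, and 6098 (3508 and 2590) without it; 2484 and 2449 of the 2508 were shared in direction. Over all arrays, yak as a fixed replicate block gave 2540 and no block 1996. With 1 yak left out the calls ranged from 248 to 837, higher from 145 to 501 and lower from 95 to 336. Normexp gave 1489 calls with 388 lower, and turned GZMA to 0.26. Brightness as a covariate gave 282 (90 and 192) and turned PIGR (-0.18), FABP3 (-0.05), SCD (-0.24), EIF3I (-0.08), FABP4 (-0.01) and XDH (-0.21). The days of the scanner files gave 5 calls (3 and 2), and with slide as a random block 0 by limma (0 higher, 0 lower, 1457 at an unadjusted p under 0.05). In these 2 fits CDC6 (0.26, 0.09), UHRF1 (0.13, 0.07), OXTR (-0.70, -0.64), ADAMTS9 (0.19, 0.14), PLIN4 (0.21, 0.19) and POU2AF1 (0.67, 0.62) turned. Quantile normalization gave 2287 calls and turned EEF1A1 (-0.03), VIM (-0.08), KRT19 (-0.16), RPS2 (-0.87) and RPS24 (-0.23). The cause was not tested. The counts stayed within 1.5 times under the dim filter (2513), the mean of probes (2168), an ordinary linear model (2408) and with yak 4 at days +120 and +180 left out (3665). Of 139 named genes called, 15 kept the call under all 15 alternatives other than the 2 with the scanner files' days: FAM19A5, SYNPR, GALNTL2, CD14, PPARA, ATP2B2 and PTHLH higher, and RSPO1, DNALI1, A2ML1, CHRDL2, DUSP9, DRD1, GPC4 and MYC lower. Levels not well above background on a day are bounds only.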
